A study of Sinotaia aeruginosa with 24 samples.

Results

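The Caspase-3 and Caspase-8 clusters are a pair of assembled gene clusters of a freshwater snail, Cluster-2499.123164 and Cluster-2499.123163. They were taken by identifier from the expression table, so they are 2 of 233875 clusters. The pair was chosen with its values in these samples known, so its levels and fold changes are given as a description and without a p-value. The snails, Sinotaia aeruginosa, which the series also calls Bellamya aeruginosa, were fed every day on algae that carried cadmium, polystyrene microplastic or both, and RNA sequencing was done on day 42. The labels name 2 tissues, Liver and Brain, and 4 treatments, which are No handling (control), Medium concentration of cadmium, Medium concentration polystyrene, and both pollutants at a medium concentration together (combined). Each of the 8 groups held 3 samples, which the labels number 1 to 3 in liver and 4 to 6 in brain. The age of the snails and the amounts behind the word medium are not given in the sources used here. The labels do not say that samples came from separate animals, so every p-value measures the spread between these samples, which may be technical.

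Caspases are proteases that cut other proteins after aspartate and carry out apoptosis. Initiator caspases such as caspase-8, caspase-9 and caspase-2 are brought together by adaptor proteins through a death effector domain or a caspase recruitment domain. They then cut executioner caspases such as caspase-3 and caspase-7, which take apart the cell. Caspase-8 works below the death receptors of the tumour necrosis factor receptor family, and inhibitor of apoptosis proteins hold caspases in check. These roles are known mainly from mammals and flies, and molluscs have caspases of the same families. RNA level is not protease activity, since caspases are made as inactive precursors.

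The names are best database matches and give the family, not a proven orthologue. Cluster-2499.123164 is 1178 bases long and matched Caspase-3 of pig in Swiss-Prot with a score of 272. Its best match in the larger NR database was a caspase-3-like protein of another snail with a score of 419. Cluster-2499.123163 is 1132 bases long and matched Caspase-8 of mouse with a score of 162, while its best NR match, with a score of 335, was a caspase-2-like protein of a snail. It carried a caspase recruitment domain, not the death effector domain by which caspase-8 is known in mammals. The KEGG orthology assigned both clusters to caspase-2. The same was true of 4 of the 9 clusters named Caspase-3 and 4 of the 8 named Caspase-8 in the table. "Caspase-3 cluster" and "Caspase-8 cluster" are therefore used below as names of these clusters, not as statements of which caspase they encode. Near-identical clusters may share reads, and the numbers of these clusters follow each other.

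The 24 samples held 13712265 to 17145998 expected counts each. Clusters with tissue names gave the labels some check. In control brains 36 of 55 tested neuron markers were higher than in control livers and 7 were lower, and 52 of 69 tested digestive gland markers were lower and 7 higher (edgeR's quasi-likelihood test, adjusted p under 0.05). Of all clusters tested between these tissues, 49.7% were called in either direction. The samples labelled liver held 27737 to 34643 CPM (counts divided by the sample's total and scaled to the same total in every sample) of the 77 digestive gland markers against 2108 to 5495 CPM in those labelled brain. Muscle markers made up 12804 to 46763 CPM of the brain samples against 987 to 1460 CPM of the liver samples. Neuron markers differed less, with 1396 to 2566 CPM in the brain samples against 978 to 1165 CPM in the liver samples. Brain control 5 stood apart from its group. Its chi-square per cluster against the other control brains was 55.9 and 54.0, and all other pairs of samples in a group lay between 5.38 and 28.0. In bulk RNA, fewer cells of a type and less RNA per cell cannot be told apart.

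In brain, both caspase clusters were high in control snails, low after cadmium and lowest after the combined exposure. The Caspase-3 cluster stood at 25.6, 24.8 and 15.7 CPM in control brains 4, 5 and 6, which came from 380.3, 372.34 and 253.31 expected counts. In the cadmium brains it stood at 5.28, 2.71 and 4.64 CPM, and in the combined brains at 1.84, 2.09 and 1.58 CPM. Every cadmium brain lay below every control brain and every combined brain below every cadmium brain. The group means were 22.0 ± 5.51 CPM in control, 4.21 ± 1.34 CPM in cadmium and 1.84 ± 0.255 CPM in combined brains (SD, n = 3 here and in all means of CPM below).

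The Caspase-8 cluster followed the same order. It stood at 28.1, 26.1 and 25.8 CPM in the control brains, from 418.01, 391.98 and 416.33 expected counts, so the control samples lay closer together than for the Caspase-3 cluster. In the cadmium brains it stood at 6.83, 4.64 and 5.13 CPM, all below the controls. In the combined brains it stood at 2.82, 5.10 and 0.978 CPM, also all below the controls, but combined brain 5 lay within the range of the cadmium brains. The means were 26.7 ± 1.28 CPM in control, 5.53 ± 1.15 CPM in cadmium and 2.97 ± 2.06 CPM in combined brains.

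**Figure D1:**
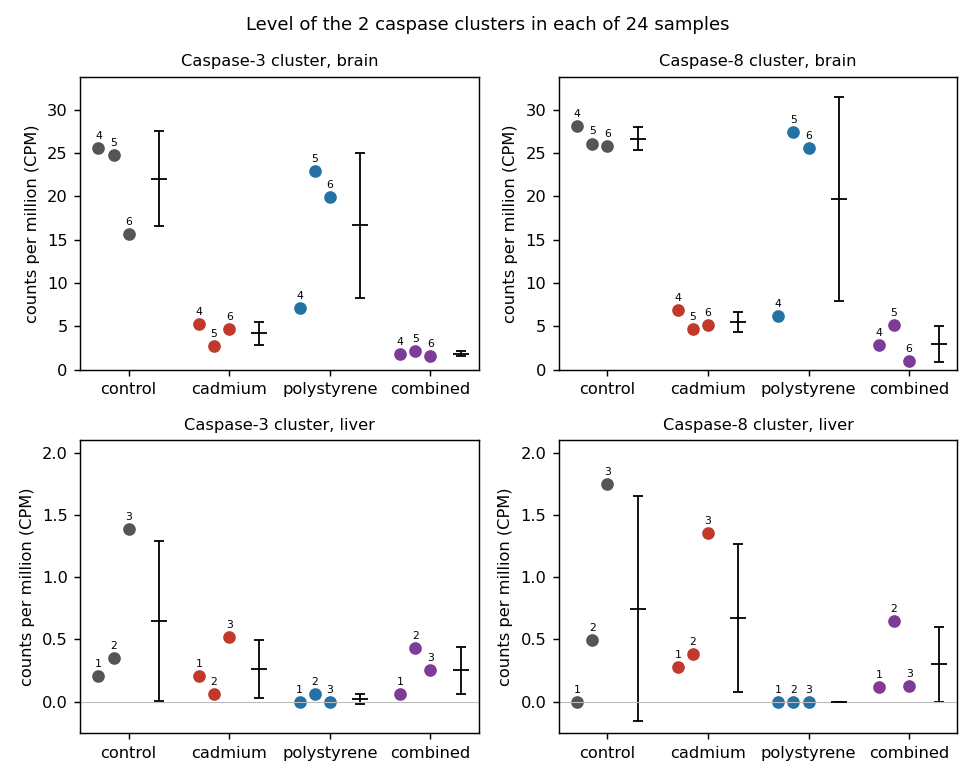
Level of the Caspase-3 cluster (left) and the Caspase-8 cluster (right) in library-scaled counts (CPM, linear axes, 1 scale per tissue) in brain (top) and liver (bottom). Each point is 1 sample with its replicate number, and the bar beside the points is the mean with its SD (n = 3). The control brains lie between 15.7 and 28.1 CPM and the combined brains between 0.978 and 5.10 CPM, while no liver sample reaches 2 CPM.

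On edgeR's scale the Caspase-3 cluster was 5.41-fold lower with cadmium than in control brains (log2 fold change -2.44 ± 0.37, standard error) and 11.6-fold lower with the combined exposure (-3.54 ± 0.39). The Caspase-8 cluster was 4.99-fold lower with cadmium (-2.32 ± 0.53) and 8.75-fold lower with the combined exposure (-3.13 ± 0.56). Each standard error of a log2 fold change, here and below, was worked back from edgeR's test. It is the size of the change over the square root of the test statistic F, and so is approximate. Of all clusters tested in brain, 9.99% had every cadmium sample below every control sample, and 10.1% had every combined sample below every control. The change with cadmium lay between -2.61 and -2.22 for the Caspase-3 cluster and between -2.47 and -2.23 for the Caspase-8 cluster, whichever of the 12 brain samples was left out. With the combined exposure it lay between -3.72 and -3.41 and between -3.68 and -2.70. Without brain control 5 the change with the combined exposure was -3.41 and -3.11. The clusters were chosen on these same samples, so none of this is a test.

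The combined brains also held more muscle transcripts. The 42 muscle markers summed to 29147 to 46763 CPM in the combined brains and 12804 to 25406 CPM in the control brains, and their median log2 fold change was 1.0, with 2 of 22 tested members higher and 0 lower (edgeR adjusted p under 0.05). Neuron markers summed to 1396 to 1917 CPM in the combined and 1639 to 2360 CPM in the control brains and their median log2 fold change was -0.04. In the cadmium brains the muscle markers summed to 18115 to 25909 CPM, with a median log2 fold change of 0.14. Blood cell markers summed to 909 to 1152 CPM with cadmium and 425 to 1119 CPM in control brains, with 5 of 31 tested members higher and 0 lower. Of all clusters tested in brain, 2.13% were called higher with both and 2.6% higher with cadmium. The part of these cell types in the caspase values was not tested.

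With polystyrene alone the brain samples disagreed. The Caspase-3 cluster stood at 7.13, 22.9 and 19.9 CPM in polystyrene brains 4, 5 and 6, and the Caspase-8 cluster at 6.19, 27.4 and 25.6 CPM. Polystyrene brain 4 lay near the cadmium brains for both clusters, and the other two lay in or near the control range. The means were 16.7 ± 8.39 and 19.7 ± 11.8 CPM. Without polystyrene brain 4 the other two averaged 21.4 CPM for the Caspase-3 cluster and 26.5 CPM for the Caspase-8 cluster. The log2 fold changes against control were -0.53 ± 0.34 and -0.56 ± 0.50, and without polystyrene brain 4 they were -0.18 and -0.15. The sums of neuron and muscle markers in polystyrene brain 4 were 2037 and 19026 CPM. Those of polystyrene brains 5 and 6 were 1828 and 1878 CPM for neuron and 24496 and 13658 CPM for muscle markers.

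Set against the single exposures, the combined brains were 2.15-fold lower than the cadmium brains for the Caspase-3 cluster (log2 fold change -1.10 ± 0.38) and 1.75-fold lower for the Caspase-8 cluster (-0.81 ± 0.54). In 13.6% of all clusters tested, as for the Caspase-3 cluster, every combined brain lay below every cadmium brain. Against the polystyrene brains the combined brains were 8.08-fold lower for the Caspase-3 cluster (-3.01 ± 0.39) and 5.92-fold lower for the Caspase-8 cluster (-2.56 ± 0.55), and here too the groups of both clusters did not overlap, as in 18.1% of clusters tested. These comparisons use the same combined samples as the one against control. Against cadmium the Caspase-8 change was -1.38 without combined brain 5 and -0.40 without combined brain 6.

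In liver both clusters were near the limit of detection, and neither passed the filter on low counts. The Caspase-3 cluster had 3, 4.98 and 19.07 expected counts in control livers 1, 2 and 3, and 3, 1 and 8 in the cadmium livers. It had 0, 1 and 0 in the polystyrene livers and 1, 6 and 4 in the combined livers. The Caspase-8 cluster had 0, 7 and 24 in control, 4, 6 and 21 in cadmium, 0, 0 and 0 in polystyrene and 2, 9 and 2 in combined livers. Replicate 3 held the most counts of both clusters in the control and cadmium livers. For the Caspase-3 cluster every polystyrene liver lay below every control liver, as in 10.5% of clusters tested in liver. For the Caspase-8 cluster every polystyrene liver lay below every cadmium liver, as in 8.24% of clusters tested, and every combined liver, as in 6.63%, and overlapped with the control livers through control liver 1, which was at 0. All other pairs of liver groups overlapped. The shares are of clusters that passed the filter in liver, which the pair did not, so they are not a background for counts this low.

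Summed over the 3 livers of a group and rounded to whole counts, the Caspase-3 cluster had 27 counts in control, 12 in cadmium, 1 in polystyrene and 11 in combined livers. The polystyrene livers thus held 0.0327 of the control CPM, with an exact 95% interval of 0.00080 to 0.199 that covers counting error only. The Caspase-8 cluster had 31, 31, 0 and 13 counts. The exact 95% interval of its ratio of polystyrene to control livers was 0 to 0.112, again for counting error only. With 3 counts taken as the floor of the polystyrene livers, its level was 11.7-fold lower there than in control livers. That figure leaves out the counting error of the control livers. Control liver 3 alone held 19.07 of the Caspase-3 counts and 24 of the Caspase-8 counts of the controls, so these ratios rest largely on 1 sample. The pair was chosen with its values known, so the intervals are a description and not a test.

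Between the tissues of control snails, both clusters were higher in brain. The log2 fold change of brain over liver was 4.43 ± 0.58 for the Caspase-3 cluster and 4.51 ± 0.85 for the Caspase-8 cluster, which are 21.6-fold and 22.8-fold. Without control liver 3 they were 5.66 and 6.13. Of all clusters tested over both tissues, 38.8% had every control brain above every control liver, and 49.7% were called in either direction. In this comparison the scaling of edgeR (TMM) lowers brain against liver by 0.64 on the log2 scale relative to plain CPM. In order of mean level, the Caspase-3 cluster ran from control, polystyrene, cadmium and combined brain to control, cadmium, combined and polystyrene liver. Control and polystyrene brains overlapped, and the 4 liver groups overlapped with their neighbours. Cadmium and combined brains did not overlap, as in 13.6% of all clusters tested in brain. The Caspase-8 cluster had the same order, but every neighbouring pair overlapped except combined and polystyrene liver.

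The 2 clusters moved together from sample to sample. In the 12 brains the Caspase-8 cluster had 0.619 to 2.44 counts for each count of the Caspase-3 cluster, and the lowest and the highest of these ratios were both in combined brains. Pearson's r of log2(CPM + 0.5) between them was 0.983 over the 24 samples and 0.957 over the 12 brains. The samples share the tissue and exposure differences and the clusters may share reads, so this is a description and has no p. When the 2 clusters were summed into 1 feature, the log2 fold changes were -2.37 with cadmium, -0.55 with polystyrene and -3.30 with the combined exposure.

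Summed over the rest of the caspase list, the groups differed less. The list held 49 clusters beside the 2, 1 of them named for an inhibitor of caspase activity, and 43 were tested in brain. Together the 2 clusters held 7.10% to 11.9% of all caspase-list counts in control brains, 1.68% to 2.56% in cadmium, 2.71% to 9.64% in polystyrene and 0.620% to 1.80% in combined brains. The other 49 summed to 375 to 543 CPM in control brains, 431 to 462 CPM in cadmium and 292 to 410 CPM in combined brains, so cadmium lay within the control range. Per 1000 bases of length the Caspase-8 cluster was the 2nd and the Caspase-3 cluster the 3rd most abundant of 51 in control brains, at 23.6 and 18.7 CPM per kilobase. The 1st was a Caspase-7 (Cluster-2499.37054) at 70.0 CPM per kilobase. In combined brains they ranked 27th and 31st, at 2.62 and 1.56 CPM per kilobase.

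**Figure D2:**
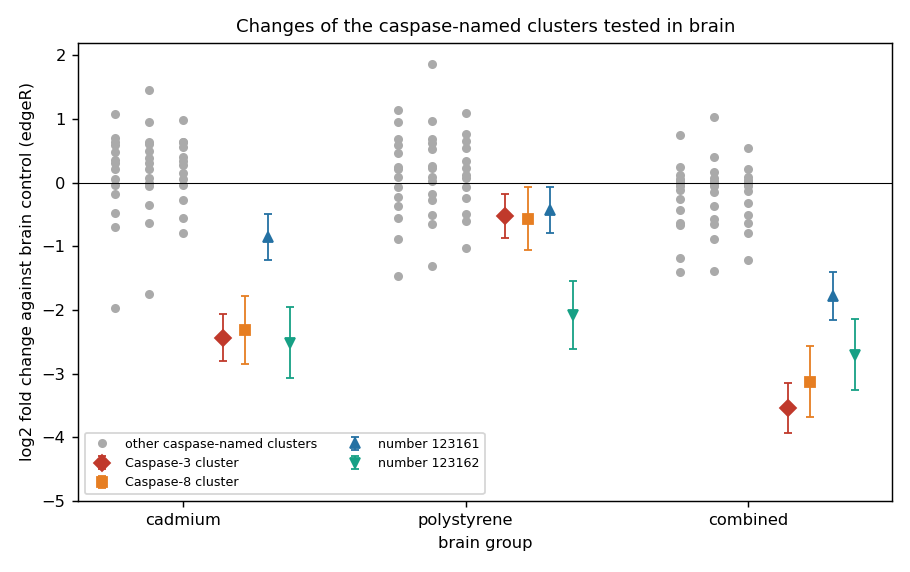
Log2 fold change against control brains (edgeR, vertical axis) of the 45 caspase-named clusters tested in brain, for the cadmium, polystyrene and combined brains. Grey points are 41 other clusters, and coloured symbols with their standard errors are the 4 consecutively numbered clusters. The Caspase-3 and Caspase-8 clusters lie at -2.44 and -2.32 with cadmium and at -3.54 and -3.13 with the combined exposure, while the median of the 43 others is 0.22 and -0.05.

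With cadmium, the median log2 fold change of the 43 other caspase clusters was 0.22 and 16 of them were below 0, against a median of -0.01 over all 64046 clusters tested. One of them fell and 0 rose (edgeR's quasi-likelihood test, adjusted p under 0.05), where 4.34% of all tested clusters were called, 2.6% higher and 1.75% lower. The one that fell was lost without control 5, cadmium 4 or cadmium 5, and 3 fell without combined 4. DESeq2 called 1 higher and 1 lower, and at an unadjusted p under 0.05 edgeR had 4 higher and 5 lower. By mean CPM over the 24 samples of both tissues, the most abundant of the others were Caspase-2 (Cluster-2499.92653) at 30.6 ± 2.74 CPM in control and 31.5 ± 0.967 CPM in cadmium brains, Caspase-7 (Cluster-2499.126146) at 46.9 ± 26.5 and 37.3 ± 11.8 CPM, and Caspase-3 (Cluster-2499.98261) at 29.3 ± 5.35 and 40.3 ± 3.59 CPM. None of these 3 passed the test with cadmium, polystyrene or the combined exposure in edgeR. In control brains alone Caspase-7 (Cluster-2499.37054) stood higher, at 67.4 ± 33.6 CPM, against 17.9 ± 4.44 CPM with cadmium, 26.2 ± 5.12 CPM with polystyrene and 26.0 ± 22.5 CPM with both. It did not pass the test either (log2 fold change with cadmium -1.97 ± 0.92, edgeR adjusted p = 0.30), and it was picked after its values were seen.

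With polystyrene 2 other caspase clusters rose and 1 fell of 43, where 7.08% of all clusters were called, 4.66% higher and 2.42% lower. Both that rose were named Caspase-7, an executioner. Cluster-2499.49771 went from 0.799 ± 0.231 CPM to 3.18 ± 0.661 CPM (log2 fold change 1.87 ± 0.50, edgeR adjusted p = 0.0376). Cluster-2499.105880 went from 2.96 ± 0.731 to 6.80 ± 2.07 CPM (1.09 ± 0.31, edgeR adjusted p = 0.0477). None rose without control 4, 5 or 6, cadmium 4, or polystyrene 5 or 6, and 1 rose without cadmium 5 or 6, polystyrene 4 or combined 6. The count that fell was 0 without control 4 or polystyrene 4 or 6 and 2 without combined 4.

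With the combined exposure 3 of the 43 others fell and 0 rose, where 3.92% of all clusters were called (2.13% higher and 1.79% lower). At an unadjusted p under 0.05 edgeR had 5 lower and 0 higher while DESeq2 called 4 lower and 0 higher. One of the 3 was another Caspase-3 (Cluster-2499.81506), which fell from 16.3 ± 6.21 to 6.82 ± 2.14 CPM (log2 change -1.22 ± 0.30, edgeR adjusted p = 0.0348). It is named here after its value was seen. It was also the one cluster of the list that was called lower in combined than in cadmium brains (-1.19 ± 0.30, edgeR adjusted p = 0.0483, with 2.79% of all clusters called), a call lost without control 6, cadmium 4 or 5, any polystyrene brain or any combined brain. In this comparison the median of the 43 others was -0.44, with 30 below 0 and 13 above, beside -0.01 over all clusters tested. At an unadjusted p under 0.05 edgeR had 13 lower and 2 higher. Counted from the lowest of 45, the Caspase-3 cluster was 4th and the Caspase-8 cluster 13th, so a fall from cadmium to combined brains was not particular to the pair. The other 2 of the 3 that fell with the combined exposure carry the numbers just below the Caspase-8 cluster. Against polystyrene, 1 of the 43 was called higher in combined brains and 0 lower, where 3.51% of all clusters were called, so this share is no more than the background. It was a Caspase-2 (Cluster-2499.85650, log2 fold change 0.78 ± 0.18, edgeR adjusted p = 0.0281) that was lost without any 1 of the polystyrene or combined brains. DESeq2 called 1 higher and 4 lower and edgeR had 1 and 10 at an unadjusted p under 0.05. The median of the 43 was -0.40, with 29 below 0. Without control 5, edgeR called 2 lower.

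Those 2 neighbours, Cluster-2499.123161 and Cluster-2499.123162, have the numbers just before the pair and were not used to choose it. Both were assigned to caspase-2 by KEGG orthology, and they are 1056 and 1315 bases long. Cluster-2499.123161, named Caspase-3 in Swiss-Prot, stood at 12.9, 10.9 and 14.1 CPM in control brains, 5.39, 6.91 and 9.27 CPM in cadmium, 7.14, 14.2 and 9.09 CPM in polystyrene and 4.34, 4.75 and 1.55 CPM in combined brains. All cadmium and combined brains were below all controls, as in 9.99% and 10.1% of all clusters tested in brain. It fell with the combined exposure (log2 fold change -1.78 ± 0.37, edgeR adjusted p = 0.0156), and that call was kept whichever brain sample was left out. With cadmium it did not pass the test (-0.85 ± 0.36, edgeR adjusted p = 0.22).

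Cluster-2499.123162, a caspase-2-like cluster, had a mean of 9.29 ± 3.64 CPM in control brains, 1.69 ± 0.724 CPM with cadmium, 2.38 ± 1.11 CPM with polystyrene and 1.42 ± 1.05 CPM with both. Unlike the pair, it was low in all 3 polystyrene brains. It fell with cadmium (log2 fold change -2.51 ± 0.55, edgeR adjusted p = 0.0193), with polystyrene (-2.08 ± 0.54, edgeR adjusted p = 0.0321) and with the combined exposure (-2.70 ± 0.56, edgeR adjusted p = 0.0145). The cadmium call was lost without control 5 or cadmium 4 or 5, and the polystyrene call without control 4 or 5 or polystyrene 4 or 6. The combined call was kept in every omission. In control brains both stood higher than in control livers, by 4.68 ± 0.58 and 4.94 ± 0.77 on the log2 scale. Neither passed the filter on low counts in liver, where the control livers had 1, 2.02 and 9.93 and 0, 4 and 4 expected counts. They entered this fit through their brain counts, so the direction was set by the filter and no p-value is given. If reads were divided among these clusters, their changes are not independent of those of the pair.

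**Figure D3:**
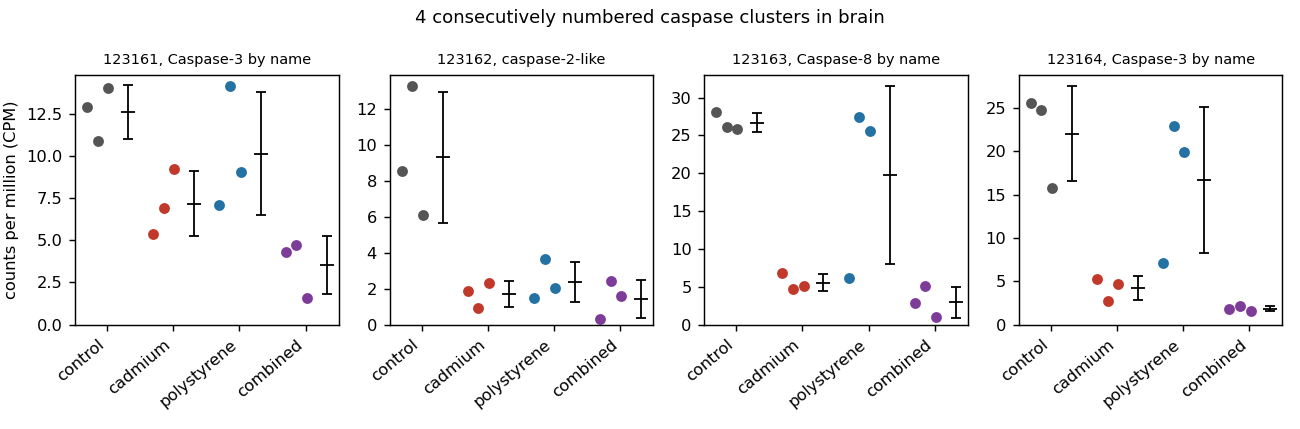
Level in library-scaled counts (CPM, linear axes from 0, a separate scale in each panel) of 4 caspase clusters with consecutive numbers in the 12 brain samples. Points are samples and the bar beside them is the mean with its SD (n = 3). All 4 are highest on average in control and lowest in combined brains, with means of 12.6 and 3.55 CPM for Cluster-2499.123161, 9.29 and 1.42 CPM for Cluster-2499.123162, 26.7 and 2.97 CPM for the Caspase-8 cluster and 22.0 and 1.84 CPM for the Caspase-3 cluster.

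Of the 36 other caspase clusters tested in liver, 1 rose with cadmium, a share near the 3.46% of all clusters called. It was a Caspase-8 (Cluster-2499.107543), which went from 2.34 to 5.17 CPM on average (log2 fold change 1.17 ± 0.29, edgeR adjusted p = 0.0417), a call lost without control liver 2 or 3, any cadmium liver, polystyrene liver 2 or 3 or combined liver 2 or 3. With polystyrene and with the combined exposure edgeR called 0 of 36, where 3.14% and 6.24% of all clusters were called. DESeq2 called 0 with polystyrene and 1 with the combined exposure, and edgeR had 5 and 7 at an unadjusted p under 0.05. Without combined liver 1, edgeR called 2 higher with the combined exposure. Of 44 tested over both tissues, 20 were higher in control brain than in control liver and 2 lower. In either direction 50% were called, near the 49.7% of all clusters. The list leaned to brain, with a median log2 fold change of 0.73 beside 0.00 over all clusters tested, and 33 above 0 and 11 below. Only 36 of the list passed the filter in liver and 43 in brain. Some of the 44 thus entered this fit through their brain counts, which set their direction. Caspase-7 (Cluster-2499.126146) showed 0.373 ± 0.261 CPM in control liver and 46.9 ± 26.5 CPM in control brain (log2 fold change 6.30 ± 0.65, edgeR adjusted p = 1.06e-07). The responses of brain and liver differed for 0 of these 44 in edgeR with any of the 3 exposures. DESeq2 called 0 for cadmium, 1 for polystyrene and 1 for both, and edgeR had 3, 2 and 5 at an unadjusted p under 0.05, where 2.23%, 2.84% and 1.98% of all clusters were called.

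Death receptors of the tumour necrosis factor (TNF) receptor family, their ligands and adaptors pass a death signal to caspases. The list was drawn by name and took in any member of the TNF receptor and ligand superfamilies, so its members need not pass such a signal. Of its 40 clusters tested in brain, 3 rose and 0 fell with cadmium (median log2 fold change 0.20). With polystyrene 5 rose and 3 fell (0.36), and with both 3 rose and 1 fell (0.18). Of all clusters tested 4.34%, 7.08% and 3.92% were called in these comparisons, in either direction. TNF receptor superfamily member 11A (Cluster-2499.79458), the receptor RANK in mammals, stood at 5.79 ± 1.92 CPM in control, 12.7 ± 1.28 in cadmium, 19.95 ± 5.01 in polystyrene and 13.6 ± 2.08 CPM in combined brains. It rose with polystyrene (log2 fold change 1.67 ± 0.25, edgeR adjusted p = 0.00192) and with both (1.28 ± 0.25, edgeR adjusted p = 0.0108). The ligand TNF superfamily member 6 (Cluster-2499.88003), Fas ligand in mammals, went from 11.8 ± 4.05 CPM to 29.97 ± 6.53 CPM with cadmium (1.31 ± 0.28, edgeR adjusted p = 0.0152), a call lost without cadmium 4 or 5. TNF receptor superfamily member 11B (Cluster-2499.100633), a decoy receptor in mammals, went the other way, from 15.2 ± 1.17 CPM in control to 5.35 ± 1.41 CPM with polystyrene (-1.61 ± 0.30, edgeR adjusted p = 0.00595) and 3.86 ± 1.49 CPM with both (-1.96 ± 0.30, edgeR adjusted p = 0.00283).

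The number of this list that rose with cadmium was 1 without control 6 or cadmium 6, 0 without cadmium 4 or 5 and 6 without combined 4 or 6, and the number that fell was 1 without combined 4. With polystyrene the number that rose was 2 without control 4 or 6, cadmium 4 or polystyrene 4, 1 without polystyrene 5 and 3 without polystyrene 6. The number that fell was 1 without control 5 or polystyrene 4 or 5. With both, 1 rose without control 4 or 6 or combined 4 or 5, and 2 fell without combined 6.

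Inhibitor of apoptosis proteins carry BIR domains, and some of them bind caspases. Of 78 tested in brain, 5 rose and 0 fell with cadmium (median log2 fold change 0.45), 14 rose and 0 fell with polystyrene (0.54) and 3 rose and 0 fell with both (0.28). Beside the 2.6%, 4.66% and 2.13% of all clusters called higher, the share that rose with both was near the background. An Inhibitor of apoptosis protein (Cluster-2499.95251) had no count in any control brain and stood at 3.16 ± 1.17 CPM with cadmium, 6.39 ± 1.75 CPM with polystyrene and 6.75 ± 2.95 CPM with both. From a floor of 3 counts over the control brains these are 48.9-fold, 98.4-fold and 104-fold higher (edgeR adjusted p = 4.57e-04, 2.06e-04 and 1.96e-04). It was present at 6.53 CPM in control livers. A Putative inhibitor of apoptosis (Cluster-2499.97412) went from 6.49 ± 2.84 CPM to 25.6 ± 9.59 CPM with both (2.06 ± 0.33, edgeR adjusted p = 0.00395). Baculoviral IAP repeat-containing protein 3 (Cluster-2499.126263) went from 1.56 ± 0.491 to 15.1 ± 8.89 CPM with polystyrene (3.15 ± 0.52, edgeR adjusted p = 0.00339) and stood at 1.84 ± 0.508 CPM with both.

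The number of inhibitors that rose with cadmium was 1 without control 5 or cadmium 4, 2 without control 6 or cadmium 5 and 8 without combined 4. With polystyrene it was 9 without control 4, 6 without control 5, 5 without polystyrene 5 and 4 without polystyrene 6. One fell with polystyrene without control 5 or combined 4. With both exposures 6 rose without combined 4, and 1 fell without control 6. At an unadjusted p under 0.05, edgeR had 24 higher and 0 lower with cadmium, 28 and 3 with polystyrene and 11 and 1 with both.

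On the mitochondrial route, where BCL2 family proteins set the release of death factors, 24 clusters were tested in brain, where 4.34%, 7.08% and 3.92% of all clusters were called with cadmium, polystyrene and both. With cadmium edgeR called 0 higher and 0 lower, DESeq2 2 and 0, and 4 and 1 had an unadjusted p under 0.05 in edgeR. The edgeR count was 1 without cadmium 5 or combined 4 and 2 without cadmium 6. With polystyrene 1 rose and 1 fell, with the rise of Bcl-2-like protein 13 (Cluster-2499.95891) from 0.493 ± 0.219 to 3.65 ± 1.37 CPM (log2 fold change 2.73 ± 0.54, edgeR adjusted p = 0.00838). The fall, of a BAK-like cluster (Cluster-2499.34871, -3.01 ± 0.77, edgeR adjusted p = 0.0336), was lost without control 4, 5 or 6, cadmium 4, polystyrene 4 or 5 or combined 5. With the combined exposure 3 rose and 0 fell, 2 of them named Apoptosis-inducing factor 3. One of these, Cluster-2499.91229, went from 24.1 ± 4.30 to 46.3 ± 0.456 CPM (0.98 ± 0.20, edgeR adjusted p = 0.0125), lost without control 4. The number that rose was 1 without control 4 or combined 4. With polystyrene it was 2 without control 4 or combined 6.

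The list drawn up for caspase substrates held 233 clusters, but 215 of them were ADP-ribosyltransferases other than PARP1 and PARP2 and say little of caspase targets. The 18 others include PARP1, lamin A, gelsolins and both subunits of DNA fragmentation factor, and of the 14 tested in brain edgeR called 0 with cadmium, 1 higher and 1 lower with polystyrene and 0 with both. DESeq2 called 0, 2 and 0, and edgeR had 2, 3 and 1 at an unadjusted p under 0.05. The one that fell was Gelsolin-like protein 2 (Cluster-2499.91117), an actin-severing protein, from 136 ± 9.07 to 86.9 ± 12.5 CPM (log2 fold change -0.76 ± 0.19, edgeR adjusted p = 0.0271), a call lost without control 5 or 6 or any polystyrene brain. Of all 157 tested, 25 rose and 1 fell with cadmium, 25 rose and 3 fell with polystyrene and 6 rose and 2 fell with both, where 4.34%, 7.08% and 3.92% of all clusters were called, so that the share with both was near the background. PARP14 (Cluster-2499.109314), a mono-ADP-ribosyltransferase, rose from 0.459 ± 0.186 CPM to 10.3 ± 3.94 CPM with cadmium and 10.2 ± 3.75 CPM with polystyrene (4.41 ± 0.44 and 4.35 ± 0.44, edgeR adjusted p = 1.58e-04 and 1.73e-04) and stood at 0.353 ± 0.121 CPM with both. It was lower in combined than in cadmium brains (-4.72 ± 0.45, edgeR adjusted p = 1.27e-04). The number that rose was 12 without cadmium 4 for cadmium, 13 without polystyrene 6 for polystyrene, and, for both, 3 without cadmium 4 or 6 or combined 5 and 2 without combined 6. The number that fell was 2 without combined 4 for cadmium. For polystyrene it was 1 without control 4 or 5, cadmium 4 or 6 or combined 5 or 6, and 0 without control 6 or any polystyrene brain. For both it was 0 without control 4 or 6 or combined 5 or 6 and 1 without control 5, cadmium 4 or 6, polystyrene 5 or 6 or combined 4. Among 18 p53 and programmed cell death clusters, GADD45 alpha (Cluster-2499.84900), a stress gene that p53 can switch on in mammals, rose with cadmium from 45.7 ± 13.5 to 88.9 ± 6.88 CPM (0.93 ± 0.22, edgeR adjusted p = 0.0301), a call lost without control 5 or any cadmium brain. With polystyrene it stood at 87.1 ± 6.25 CPM (0.83 ± 0.22, edgeR adjusted p = 0.0382, lost without control 4 or 5, cadmium 4 or 6 or any polystyrene brain). With both, edgeR called 0 of the 18, DESeq2 1 higher, and edgeR had 2 higher and 1 lower at an unadjusted p under 0.05. Without control 5, edgeR called 1 lower.

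**Figure D4:**
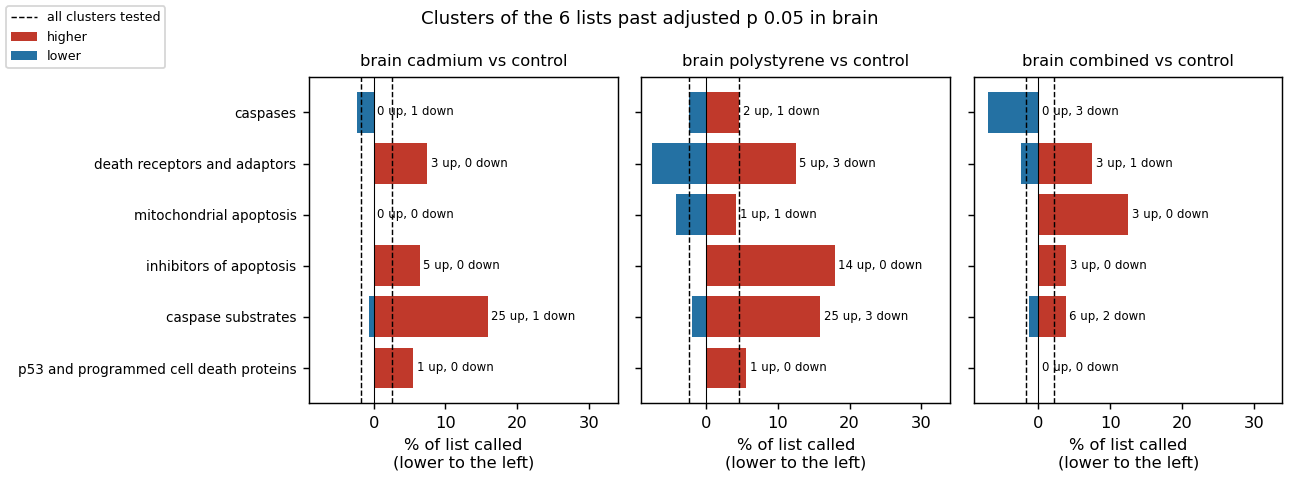
Share of each list (clusters tested in brain, the 2 caspase clusters left out) called higher (red, to the right) or lower (blue, to the left) at edgeR adjusted p under 0.05, with the counts beside the bars. Dashed lines give the share of all 64046 clusters called in each direction. Inhibitors of apoptosis have 5, 14 and 3 members higher and 0 lower with cadmium, polystyrene and both, and the caspases 0, 2 and 0 higher and 1, 1 and 3 lower.

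Over all 6 lists without the pair, 34 of 359 tested clusters rose and 2 fell with cadmium, 48 rose and 8 fell with polystyrene, and 15 rose and 6 fell with the combined exposure. Of all clusters tested 4.34%, 7.08% and 3.92% were called. The median log2 fold changes were 0.36, 0.27 and 0.13, beside -0.01, 0.00 and -0.01 over all clusters tested. Of the clusters that rose, 25, 25 and 6 were from the list drawn up for caspase substrates. That list is mostly ADP-ribosyltransferases other than PARP1 and PARP2, so the pooled counts say little of the caspase pathway as a whole. Combined brains were higher than cadmium brains for 4 and lower for 12, and higher than polystyrene brains for 2 and lower for 13. Against cadmium 2.79% and against polystyrene 3.51% of all clusters were called. All 3 comparisons with control share the control brains. The total with cadmium, 36, was 23 without control 6 or cadmium 5 and 14 without cadmium 4. The total with polystyrene, 56, was 33 without control 4, 37 without control 5, 34 without control 6 and 36, 26 and 24 without polystyrene 4, 5 and 6. That with both, 21, was 13 without control 4 or combined 5 or 6. The 16 called between combined and cadmium brains were 6, 5 and 10 without cadmium 4, 5 and 6, 9 without polystyrene 4 and 6 without combined 5. The 15 called between combined and polystyrene brains were 26 without control 5, 5 and 7 without polystyrene 5 and 6, and 8 and 5 without combined 4 and 5.

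The clusters most like the pair in their pattern over the 24 samples, among 15629 clusters with at least 1 CPM on average and an informative name, were each other. After these came Cubilin (Cluster-2499.126290), a receptor for uptake of proteins in mammals, with Pearson's r of 0.954 to the Caspase-3 cluster. Hemicentin-1 (Cluster-2499.125945), an extracellular matrix protein, had r of 0.948, the neighbour Cluster-2499.123161 0.945 and CUB domain-containing protein 2 (Cluster-2499.128895) 0.943. For the Caspase-8 cluster the list was the neighbour (0.946), CUB domain-containing protein 2 (0.940), the same Cubilin (0.940) and another Cubilin (Cluster-2499.126064, 0.929). All values use log2(CPM + 0.5), and much of each is the shared difference between tissues. Within the 12 brains r was 0.881, 0.853, 0.841 and 0.916 for the Caspase-3 cluster and 0.903, 0.953, 0.860 and 0.806 for the Caspase-8 cluster, in the same orders.

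Hemicentin-1 stood at 136, 60.6 and 173 CPM in control brains, 2.51, 0.969 and 7.81 CPM in cadmium, 66.7, 169 and 191 CPM in polystyrene and 5.57, 6.28 and 8.74 CPM in combined brains. All its cadmium and combined brains lay below all controls, as in 9.99% and 10.1% of all clusters tested in brain. Unlike the pair its mean was lower with cadmium (3.76 CPM) than with both (6.86 CPM). Its cadmium and combined brains overlapped, as did those of the Caspase-8 cluster but not of the Caspase-3 cluster. CUB domain-containing protein 2 stood at 12.5, 13.2 and 14.7 CPM in control, 5.92, 5.67 and 6.25 CPM in cadmium, 9.32, 21.2 and 15.7 CPM in polystyrene and 3.24, 6.99 and 2.44 CPM in combined brains. Polystyrene brain 4 was the lowest of its group in both, as it was in the pair. These clusters were picked by their likeness, so their values are a description.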

How the data were processed

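Per the labels' protocols, RNA came from an Rneasy kit and libraries from a SMARTER mRNA kit. The deposited table gives, for each assembled cluster, raw expected counts for the 24 samples. In each library between 3.54% and 7.14% of values had a fraction, so the authors' values are estimated reads, unscaled between samples. Which assembler, aligner or counter made them is not given in the sources used here. The mouse build mm10 appears in the submitters' processing notes and cannot apply to a snail assembly, and no coordinates or sequences were used. Lengths and names (Swiss-Prot, else NR or KO) came with the table.

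The counts were rounded and fitted in edgeR 4.0.16 (R 4.3.3) with filterByExpr at 10 counts, TMM, a robust quasi-likelihood fit and Benjamini-Hochberg adjustment over all clusters tested. Calls are at an adjusted p under 0.05. Fits used the 12 samples of a tissue (55762 clusters in liver, 64046 in brain) or, between tissues, all 24 (78809 clusters). CPM is the count over the sample's total, without TMM. For 1 value, a permutation of 3 against 3 cannot reach below p = 0.1. Intervals and floors cover counting error only.

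The members and lists were chosen with earlier results of these data known. Beside the pair, the text names the 3 other caspases with the highest mean CPM over all 24 samples, the clusters most like the pair, and some of up to 2 called clusters with the smallest adjusted p per list, comparison and direction. Lists were drawn by name, and 4 members of the mitochondrial list (Nuclear apoptosis-inducing factor 1 and Kelch-like protein diablo) are not of that pathway. Replicate numbers did not pair the samples, since deviations of same-numbered samples correlated at -0.147 to 0.160 in brain and -0.105 to 0.127 in liver. Alternatives were DESeq2 1.42.0 (size factors, Wald test), no filter, a filter of 1 CPM in 3 samples, a prior count of 2, only the groups compared, a replicate block, the 2 clusters summed and each sample left out. In simulated counts for cadmium against control in brain (64046 clusters), the fit recovered 10, 56, 78 and 94% of clusters changed 2, 4, 8 and 16-fold, with 8 false among 127 calls. Each fold was given to 50 clusters with a mean above 1 CPM. Far fewer clusters changed there than the 2782 called with cadmium in the data.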

Additional observations from a re-analysis of the deposited data

Results flagged for a closer look

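The 26 values here are differences between the brain and the liver response to the same exposure, on the log2 scale, each past an adjusted p of 0.05 in edgeR's test of that difference over all 24 samples. They are flagged because the 2 tissues responded differently. None is a caspase, and levels are group means in CPM (n = 3). The 26 are not all that passed, but up to 2 per list, exposure and direction with the smallest adjusted p. Over the 6 lists 14, 24 and 14 of 393 tested clusters passed with cadmium, polystyrene and both. These are 3.56%, 6.11% and 3.56%, where 2.23%, 2.84% and 1.98% of all clusters were called.

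With cadmium, the ankyrin repeat and death domain-containing protein 1B-like cluster (Cluster-2499.80058) differed by 2.32, from 9.15 to 2.26 CPM in liver and from 6.41 to 8.08 CPM in brain. Tumor necrosis factor receptor superfamily member 11B (Cluster-2499.100633) differed by -1.52 with cadmium and -1.94 with both exposures, and the calls were lost in 21 and 1 of 24 omissions of 1 sample. The Diablo homolog (Cluster-2499.77656), a mitochondrial protein that in mammals binds inhibitors of apoptosis, differed by -1.87 with cadmium, from 3.59 to 9.62 CPM in liver and from 7.12 to 5.52 CPM in brain, and was lost in 5 of 24 omissions.

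Among the inhibitors of apoptosis, Cluster-2499.76001 differed by 3.10 with cadmium, 2.69 with polystyrene and 3.07 with both. It had 8.07, 2.15, 3.88 and 3.01 CPM in control, cadmium, polystyrene and combined livers and 2.87, 6.81, 9.25 and 8.96 CPM in the brains. Cluster-2499.95251 differed by 10.85, 11.63 and 12.30, values that depend on the prior count because control brains had no count of it. It had 6.53, 1.02, 1.28 and 0.868 CPM in the livers in the same order. Baculoviral IAP repeat-containing protein 7-B (Cluster-2499.106002) differed by -2.74 with both, from 2.50 to 15.7 CPM in liver and from 6.47 to 6.14 CPM in brain.

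Among the receptors and ligands, Tumor necrosis factor receptor superfamily member 11A (Cluster-2499.79458) differed by 1.36 with polystyrene and 1.19 with both, the latter lost in 10 of 24 omissions. A pair of clusters named for member 5 differed with polystyrene, by -5.31 (Cluster-2499.122077) and -3.42 (Cluster-2499.29039). The ligand Tumor necrosis factor ligand superfamily member 10 (Cluster-2499.89987) differed by 1.04 with both, from 12.4 to 10.1 CPM in liver and from 55.9 to 93.4 CPM in brain, and was lost in 6 of 24 omissions.

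A pair of clusters named Apoptosis-inducing factor 3 differed with both exposures, by 1.13 (Cluster-2499.91229) and 1.19 (Cluster-2499.87285, lost in 20 of 24 omissions). The tumor protein 63-like cluster (Cluster-2499.85262) differed by -4.02 with both, from 0.162 to 1.17 CPM in liver and from 2.11 to 0.915 CPM in brain, and was lost in 11 of 24 omissions.

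The other flagged clusters were mono-ADP-ribosyltransferases. Those named PARP14 differed by 5.35 with cadmium and 7.08 with both (Cluster-2499.76651), by 1.86 (Cluster-2499.61872) and -2.42 (Cluster-2499.97081) with cadmium and by -5.11 with polystyrene (Cluster-2499.23458). PARP15 (Cluster-2499.71914) differed by 2.10 and a PARP10-like cluster (Cluster-2499.50842) by 4.84 with polystyrene. The cadmium calls of Cluster-2499.76651 and Cluster-2499.61872 were each lost in 1 of 24 omissions, and the calls above with no such count were kept in all 24.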

How the results depend on the processing

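The 12 log2 fold changes of the pair kept their sign and moved by less than the spread between replicates (the pooled SD of log2(CPM + 0.5) in the groups compared) under each of 8 alternatives and in 166 of 168 omissions of 1 sample. The other two were brain over liver without control liver 3, at 5.66 for the Caspase-3 cluster (range of 24 omissions 4.001 to 5.66) and 6.13 for the Caspase-8 cluster (3.92 to 6.13). Against the narrower standard error of the fold change, 3 more of the 168 omissions moved a value further: without polystyrene brain 4 the Caspase-3 cluster with polystyrene (-0.18), and without combined brain 5 the Caspase-8 cluster against cadmium (-1.38) and against polystyrene (-3.15). Counts of called clusters over the 6 lists moved more. Without the filter on low counts they were 45, 30, 48, 47 and 32 in liver for cadmium (25 with the filter), polystyrene (9), both (20), both against cadmium (14) and both against polystyrene (8). In brain they were 69 for cadmium (36), 37 for both (21), 37 for both against cadmium (16) and 38 for both against polystyrene (15), and 29 and 27 for the difference between tissues in the cadmium (14) and combined (14) response. With DESeq2's Wald test they were 21, 41, 34 and 20 for the last 4 liver comparisons, 59, 38, 26 and 33 for these 4 of brain and 24 and 30 for the differences between tissues. With only the groups compared in the fit they were 16 for cadmium, 21 for polystyrene and 5 for both against cadmium in liver, 8 for both in brain and 9 for the combined difference between tissues. With the replicate number as a block, both against cadmium in brain was 10, and the other counts stayed within 1.5 times. The cause was not tested. Over omissions the counts ran from 9 to 32, 2 to 15, 7 to 27, 7 to 22 and 0 to 19 in liver in the order above. In brain they ran from 14 to 50 for cadmium, 24 to 62 for polystyrene, 13 to 21 for both, 5 to 23 against cadmium and 5 to 26 against polystyrene. They ran from 161 to 190 between control tissues and from 8 to 16, 16 to 26 and 8 to 16 for the differences in response. No value changed sign. Of 145 named calls, 18 were lost with the block, 38 with only the groups compared and 4 without the filter. The 10% recovery of 2-fold changes in brain belongs to a simulation with far fewer changed clusters than were called in the data. Small changes may have been missed, but the share missed in the data is not known.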
